A study of Mus musculus with 6 samples.

Results

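The proteasome is the enzyme complex that degrades ubiquitin-tagged proteins, and its genes were examined here in a map of chromatin states from mouse hematopoietic stem cells (HSCs), the rare bone marrow cells that renew all blood lineages. The genes were chosen by symbol: Psma to Psmg followed by a number, without the 3 immunoproteasome genes Psmb8, Psmb9 and Psmb10. The rule took 48 of 21779 protein-coding genes on the map. Of these, 31 encode subunits of the proteasome's core and cap (Psma1 to Psma7, Psmb1 to Psmb7, Psmc1 to Psmc6 and 11 Psmd genes). The others were 3 Psmd and 4 Psmg genes for assembly chaperones, the activators Psme1 to Psme4, the inhibitor Psmf1 and the tissue-restricted subunits Psma8 and Psmb11. The pattern also admitted Psmc3ip, Psme3ip1 and Psme2b. Psmc3ip encodes a meiotic recombination factor and Psme3ip1 a partner of an activator, so neither is a subunit. Psme2b is a copy of Psme2, and its state is uncertain because reads of 2 similar genes can be hard to tell apart.

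The series comprised 6 ChIP-seq libraries (sequenced DNA bound to the target of an antibody, or its input) from HSCs of adult C57BL/6 mice: 2 for the histone variant H3.3 in wild-type cells, 2 for H3.3 in HIRA knockout cells, and 1 input of each genotype. HIRA is a chaperone that places H3.3 into chromatin outside replication. Per the labels' protocols, mice received poly(I:C), which triggers interferon, in 2 doses (20 ug each) to delete Hira in the blood system, with the sort 7 days from the first of these doses. The same protocol stands on the wild-type libraries, and the driver of the deletion is not given in the sources used here. The file used here was 1 map of the mm10 genome in 18 states and bins of 200 bp, tied to wild-type H3.3 by its name. It holds state numbers without names, counts or replicates, so the depth is unknown, no test between samples was possible, and knockout cells were not analysed here. An end of the gene record fell in states 3 to 6 for all 10 HSC markers listed, including Kit, Mecom and Hlf. Over all protein-coding genes, an end fell in these states for 47.6%. Neither end did so for Cd3e (T cells), Elane (neutrophil lineage), Slc4a1 (red cells), Col1a1 (stroma) or Cdh5 (endothelium).

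The proteasome consists of a barrel, the 20S core, and caps that feed it. The outer alpha rings of the barrel gate the entrance, and the inner beta rings hold the protease sites. The 19S cap recognises ubiquitin, removes it and unfolds the substrate with a ring of ATPases. Almost every cell needs the complex, and its genes are known to be regulated together. Blood stem cells are known for a low rate of protein synthesis and for their sensitivity to faults in protein quality.

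Nearly all proteasome genes began in the group of states 3, 4, 5 and 6, which cover 1.13% of the map and are concentrated at gene starts. The RefSeq promoter table (GRCm38.p6, the assembly of mm10) gave a start and a strand for 40 of the 48 genes. Psma8, Psmb1, Psmb2, Psmb7, Psmc3, Psmd3, Psmd7 and Psmg2 were described by both ends of the gene record. The start lay in states 3 to 6 in 37 of 40 genes (92.5%, 95% Wilson interval 80.1 to 97.4, which covers counting error only). The share was 50.3% of all 17492 protein-coding genes with a start. State 6 held 16 of the 40 starts (17.1% of starts over all genes), state 5 held 8 (12.2%), state 4 held 7 (9.74%) and state 3 held 6 (11.3%). State 17 held 2, against 5.72% over all genes. No start lay in states 9 to 11, where 18.4% of all genes began, or in state 18, where 19.3% did. Counted by either end of the record, 43 of 48 genes (89.6%) touched states 3 to 6, where 47.6% of all protein-coding genes did. Among the 31 core and cap subunits the count was 30, and Psma6 was the exception.

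**Figure D1:**
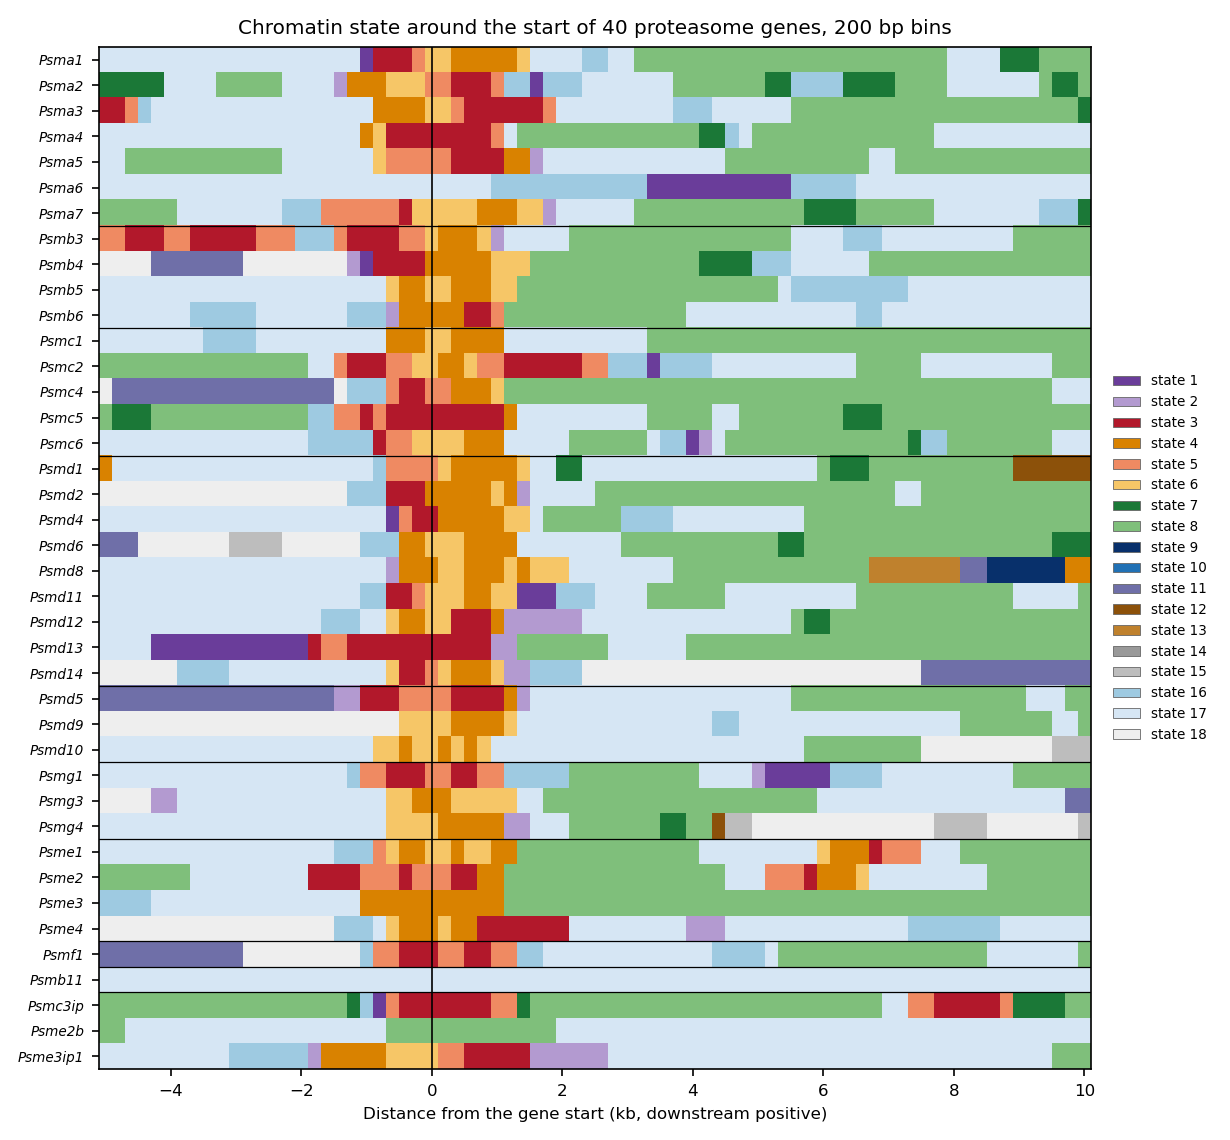
State of each 200 bp bin from 5 kb upstream to 10 kb downstream of the start (x axis, kb) in the 40 genes with a start, 1 row per gene, with lines between roles in the order 20S alpha ring, 20S beta ring, 19S ATPases, 19S non-ATPases, 19S chaperones, 20S chaperones, activators, inhibitor, tissue-restricted and other symbols. States 3 to 6 stand at the start of 37 genes, and state 8 appears downstream within the plotted range in all of these but Psmd14 and Psme4, whereas the row of Psmb11 is state 17 throughout.

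Adjacent segments in states 3 to 6 were joined into a run, and its length at the start is given in kb. Over the 37 genes the run spanned 1.6 to 4.2 kb with a median of 2.2 kb. Over all 8797 protein-coding genes with such a start the range was 0.20 to 16.0 kb and the median 2.4 kb. The quartiles of those genes were 1.8 and 2.8 kb, a range (both limits included) that held 32 of the 37 proteasome runs (86.5%) and 60.8% of the 8797. The 9 HSC markers with a start had runs of 1.8 kb (Cd34) to 16.0 kb (Meis1) with a median of 4.6 kb, so their range overlapped that of the proteasome genes at its lower end.

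The alpha ring genes had runs with a median of 2.4 kb over 6 genes. The longest, 3.4 kb, was at Psma7. It held 1.4 kb of state 6, 1.2 kb of state 5, 0.6 kb of state 4 and 0.2 kb of state 3. The shortest, 2.2 kb at Psma4, had 1.6 kb of state 3 and 0.2 kb each of states 4, 5 and 6. Psma1, Psma2 and Psma5 each had 2.4 kb and Psma3 had 2.8 kb. The start of Psma3 lay 5340 bases inside its record, and the left end of that record fell in a separate run of 2.6 kb. The 6 runs thus differed by at most 1.2 kb, or 6 bins of the map.

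Psma6 stood apart in this ring because its record begins upstream of the run. The first start in the table lay in state 17, and a second start of the same gene, 14.6 kb downstream, lay in state 5 within a run of 2.6 kb. Counting any start in the table, 38 of 40 genes began in states 3 to 6. The 250 bases before each start are shown because these 2 sequences of 1 gene fall in different states. Capitals in these and the other sequences mark the motifs searched for, which are named further on, and matches that reach past the start are not marked. The first is at chr12:55383972-55384221 and the second at chr12:55398575-55398824, both on the plus strand of GRCm38.p6, with sequence from RefSeq.
Psma6, start in state 17: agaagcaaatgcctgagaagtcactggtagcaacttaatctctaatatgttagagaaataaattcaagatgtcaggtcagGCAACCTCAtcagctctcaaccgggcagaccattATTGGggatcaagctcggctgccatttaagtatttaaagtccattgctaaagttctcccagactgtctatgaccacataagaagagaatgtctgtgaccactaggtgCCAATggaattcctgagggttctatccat
Psma6, start in state 5: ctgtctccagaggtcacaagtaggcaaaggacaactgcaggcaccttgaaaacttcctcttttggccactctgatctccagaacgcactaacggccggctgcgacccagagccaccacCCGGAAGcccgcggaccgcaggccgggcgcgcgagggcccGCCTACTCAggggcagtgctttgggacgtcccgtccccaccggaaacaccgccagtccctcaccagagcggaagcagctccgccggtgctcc
In the 300 bases from 250 before to 50 after the start, the first sequence held 3 CpG dinucleotides and 46.7% G+C, and the second held 22 CpG and 65.0% G+C.

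All 7 constitutive beta ring genes had an end in states 3 to 6 and the other end in state 7 or 8. Psmb5, Psmb6 and Psmb7 carry the protease sites. The start of Psmb5 lay in state 6 and its run of 2.0 kb held states 4 and 6 alone, 1.0 kb of each. Psmb6 had the shortest run of all, 1.6 kb, with 1.0 kb of state 4, 0.4 kb of state 3 and 0.2 kb of state 5. Psmb3 and Psmb4 had the longest runs of the ring, 2.4 kb each. That of Psmb3 held 0.8 kb of state 3, 0.6 kb each of states 4 and 5 and 0.4 kb of state 6, and that of Psmb4 held 0.8 kb of state 3, 1.0 kb of state 4 and 0.6 kb of state 6. For the genes without a strand, the run at the end of the record in states 3 to 6 was 2.2 kb at Psmb1, 2.0 kb at Psmb2 and 1.6 kb at Psmb7.

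The ATPase genes of the cap, Psmc1 to Psmc6, held the longest run. Psmc2 had 4.2 kb, of which 1.8 kb were state 3, 1.4 kb state 5, 0.6 kb state 6 and 0.4 kb state 4, with 2 starts of the table inside it. The other runs were 2.8 kb at Psmc5, 2.0 kb at Psmc6 and 1.8 kb at Psmc1 and Psmc4, the shortest of the role. Psmc1 held 1.4 kb of state 4 and 0.4 kb of state 6, and Psmc4 held 0.6 kb each of states 4 and 5, 0.4 kb of state 3 and 0.2 kb of state 6. Psmc3, without a strand, had a run of 2.0 kb at the left end of its record, all in state 4. The promoters with the longest and the shortest run are shown for their contrast in base composition. Psmc2 lies at chr5:21785025-21785274 and Psmb6 at chr11:70525107-70525356, both plus strand, 250 bases before the start.
Psmc2: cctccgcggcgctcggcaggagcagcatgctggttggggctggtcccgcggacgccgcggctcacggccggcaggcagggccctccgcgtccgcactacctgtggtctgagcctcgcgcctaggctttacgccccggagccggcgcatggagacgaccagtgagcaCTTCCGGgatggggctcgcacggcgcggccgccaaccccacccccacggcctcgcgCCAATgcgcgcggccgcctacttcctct
Psmb6: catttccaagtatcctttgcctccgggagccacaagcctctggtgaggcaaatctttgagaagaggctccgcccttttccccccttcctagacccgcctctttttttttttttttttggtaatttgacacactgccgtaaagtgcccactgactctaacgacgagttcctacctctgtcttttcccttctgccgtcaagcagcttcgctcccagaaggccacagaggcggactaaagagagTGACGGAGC
Psmc2 had 37 CpG and 71.0% G+C in its 300 bases, and Psmb6 had 15 CpG and 52.7%. Across the 37 genes the run length and the CpG count were weakly related (Spearman's rho = 0.23, Pearson's r = 0.40), against 0.36 and 0.28 across the 8797 genes. These are descriptions across genes of 1 map, which are not independent replicates.

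The 11 non-ATPase subunits of the cap all had an end in states 3 to 6, and their runs had a median of 2.0 kb over the 9 genes with a start. The longest, 2.8 kb at Psmd13, lay in state 3 (2.4 kb) and state 5 (0.4 kb) alone. Psmd8 had 2.6 kb in states 4 and 6 alone. Psmd6, Psmd12 and Psmd14 shared the shortest length, 1.8 kb. Psmd6 held 1.2 kb of state 4 and 0.6 kb of state 6, and Psmd12 held 0.6 kb each of states 3, 4 and 6. Psmd14 held 0.6 kb each of states 4 and 6, 0.4 kb of state 3 and 0.2 kb of state 5. Psmd14 encodes the deubiquitinase of the cap and Psmd4, with 2.0 kb and a start in state 3, a ubiquitin receptor. The large scaffold subunits Psmd1 and Psmd2 had 2.2 and 2.0 kb. Psmd11, which had 2.0 kb, is the subunit whose level has been linked to proteasome activity in pluripotent stem cells. The record ends of Psmd3 and Psmd7 lay in runs of 2.4 and 2.0 kb.

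All 7 genes of assembly chaperones, which help to build the cap or the barrel, had an end in states 3 to 6. Of the cap's chaperones, Psmd5 had the longest run (2.4 kb, with 1.4 kb of state 3, 0.8 kb of state 5 and 0.2 kb of state 4). Psmd9 and Psmd10 had 1.8 kb each in states 4 and 6 alone, with 0.8 kb of state 4 at Psmd9 and 0.6 kb at Psmd10. Psmd10, also known as gankyrin, was the only 1 of the 48 genes on chromosome X. Of the barrel's chaperones, Psmg1 had 2.2 kb in states 3 and 5 alone (1.0 and 1.2 kb). Psmg3 had 2.0 kb and Psmg4 1.8 kb, both in states 4 and 6 alone, with 1.0 kb of state 4 and 0.8 kb of state 6 at Psmg4. The left end of Psmg2 lay in state 4, in a run of 2.4 kb.

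The activators replace or accompany the 19S cap at the ends of the barrel. Psme1 and Psme2 encode the interferon-inducible activator and lie 5913 bases apart on chromosome 14. Psme2 had the longest run of the role, 3.0 kb with 1.4 kb of state 3, 1.2 kb of state 5 and 0.4 kb of state 4. Psme1 had 2.2 kb, with 1.0 kb each of states 4 and 6 and 0.2 kb of state 5. Psme3, which encodes a nuclear activator, had a run of 2.2 kb made of state 4 alone. Psme4, the gene of a nuclear activator linked to degradation of acetylated histones, had 2.8 kb with 1.4 kb of state 3. The inhibitor gene Psmf1 had a start in state 3 and a run of 2.2 kb (1.0 kb of state 3 and 1.2 kb of state 5). The ends of its record lay in states 17 and 18. Its start lay 2889 bases inside the record, so Psmf1 counts by its start and not by its ends. Psmc3ip had a run of 2.0 kb (1.4 kb of state 3 and 0.6 kb of state 5). Psme3ip1 had 3.2 kb, with 1.0 kb each of states 3 and 4, 0.8 kb of state 6 and 0.4 kb of state 5.

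**Figure D2:**
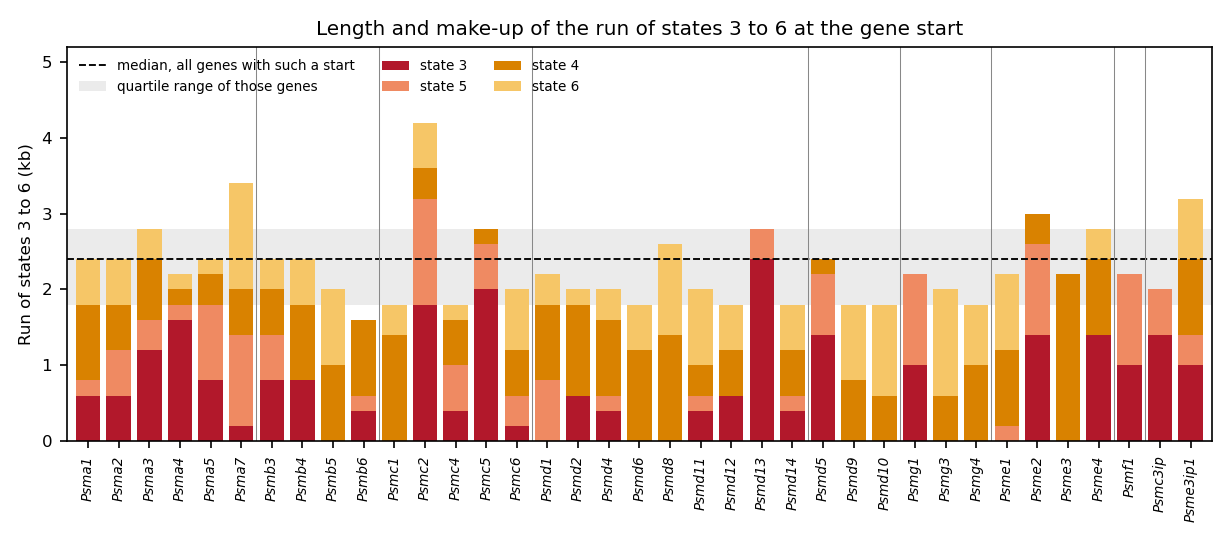
Length of the run of states 3 to 6 at the start (y axis, kb), stacked by state, for the 37 genes with such a start, grouped by role. The dashed line is the median of all 8797 protein-coding genes with such a start (2.4 kb) and the grey band their quartile range (1.8 to 2.8 kb), which 4 genes exceed, Psmc2 the most at 4.2 kb.

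The tissue-restricted subunits had none of these states at their ends. Psmb11 encodes the thymus-specific protease subunit that takes the place of the Psmb5 product in cells of the thymic cortex, and Psma8 encodes an alpha subunit of the testis. The whole 5 kb flanked window of Psmb11 (record at chromosome 14, 54625310 to 54629556) was 1 segment of state 17. Psmb5 (54614120 to 54617995) lies 7315 bases away, and its window held 10 segments in 5 states. Psma8 had ends in states 17 and 18, with 47.8% of its record in state 17, 50.4% in state 18 and 1.78% in state 8. Psme2b had both ends and its whole record in state 8, and overlaps the record of 9930111J21Rik1. In a map of pooled cells, a weaker mark in every cell and a mark in fewer cells cannot be told apart.

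The 250 bases before the starts of Psmb11 (chr14:54625060-54625309, plus strand) and Psme2b (chr11:48946411-48946660, minus strand) are shown because these genes, with the first start of Psma6, are the 3 that began outside states 3 to 6.
Psmb11: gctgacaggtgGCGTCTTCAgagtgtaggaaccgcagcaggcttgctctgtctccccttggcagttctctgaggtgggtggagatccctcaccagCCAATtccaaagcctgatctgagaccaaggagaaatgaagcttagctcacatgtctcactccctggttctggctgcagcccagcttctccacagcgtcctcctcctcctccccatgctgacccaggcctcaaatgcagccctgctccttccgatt
Psme2b: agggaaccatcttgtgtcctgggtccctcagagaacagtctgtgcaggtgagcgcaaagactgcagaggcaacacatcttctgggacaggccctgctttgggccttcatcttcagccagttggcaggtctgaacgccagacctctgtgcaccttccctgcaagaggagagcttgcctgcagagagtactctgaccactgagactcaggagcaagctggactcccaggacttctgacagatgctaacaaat
The 3 promoters held 4, 2 and 3 CpG in 300 bases (Psmb11, Psme2b and Psma6), and the 37 others 10 to 41, so these 3 and the 37 did not overlap. Over all genes such groups did: at least 10 CpG were found in 88.7% of promoters that start in states 3 to 6 and in 25.4% of those that start elsewhere, a limit chosen after the values were seen. These are base counts of the genome and not measurements of the cells. Over all protein-coding genes the median was 13, and over those with a start in states 3 to 6 it was 22, against 20 for the 37 proteasome genes.

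**Figure D3:**
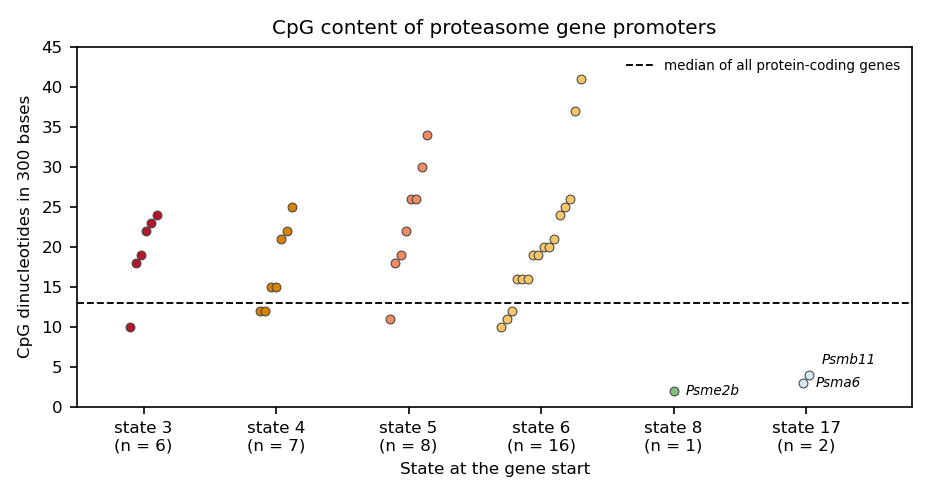
CpG dinucleotides in the 300 bases from 250 before to 50 after the start (y axis) by the state at the start (x axis), 1 point per gene for the 40 genes with a start. The dashed line is the median of all protein-coding genes (13), and Psma6, Psmb11 and Psme2b lie below all 37 genes that begin in states 3 to 6.

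Most runs held several of the 4 states. States 3 and 5 were counted as one pair and states 4 and 6 as another. Both pairs occurred in 24 of the 37 runs (64.9%), against 66.0% of all genes with such a start. Runs of states 4 and 6 alone numbered 9 (24.3%, against 16.5%) and runs of 3 and 5 alone 4 (10.8%, against 17.5%). In 16 of the 24 mixed runs states 3 and 5 lay on average upstream of 4 and 6, against 56.5% of mixed runs over all genes. At 0.6 kb downstream of the start, 47.5% of the 40 genes were in state 4, against 15.3% of all genes with a start and 30.2% of those that begin in states 3 to 6. State 5 held 0% of the 40 genes there, and 7.15% of all genes. This was the bin in which state 4 was most common in the 40 genes, and state 5 differed in nearby bins. State 5 held 7.50% of the 40 genes at 0.4 kb and 17.5% at 1.0 kb, against 8.51 and 7.72% of all genes. Pooled over the 48 records, state 4 covered 2.47% of bases, 5.36 times its share of all protein-coding records, the highest ratio among the 18 states. States 3 to 6 together covered 6.86%, against 2.13% of all records. These ratios were not adjusted for record length or for the share of genes with a run. At the start itself, state 4 held 17.5% of the 40 genes, against 30.0% of 70 oxidative phosphorylation genes. The run reached further downstream than upstream of the start in 26 of 37 genes (70.3%, against 73.4%). Its median extent was 0.8 kb upstream and 1.2 kb downstream, the same medians as over all 8797 genes.

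In the gene record state 8 was the most common state of the proteasome genes, with 44.3% of all their bases, and state 7 held 2.25%. A median of 57.2% of the record lay in states 7 and 8, against 0% over all protein-coding genes, 4.79% over those in the same length range and 35.6% over those with a start in states 3 to 6. For the 37 proteasome genes with such a start the median was 56.9%. State 8 was found in 47 of 48 records (97.9%, against 49.3% of all) and state 7 in 24 of 48 (against 26.5%). More than 50% of the record lay in these states in 28 genes (58.3%, against 17.1% of all). State 18 was in 6 records (12.5%, against 49.8%), and both ends lay in it in 0 of 48 genes (against 13.6%). One end in states 3 to 6 and the other in state 7 or 8 was seen in 37 genes (77.1%), against 20.4% of all protein-coding genes. The 3′ end lay in state 7 or 8 in 32 of the 40 genes with a strand (80.0%, against 24.7%). In those 32 genes the stretch ran past the 3′ end by a median of 1.4 kb and at most 6.0 kb, at Psmc1. Over all genes with such a 3′ end the median was 1.0 kb. These bins were counted whether or not they lay in a neighbouring gene. The 3′ end of Psmc3ip, for example, lies inside the record of Mlx, and that of Psme1 inside the record of Emc9.

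States 3 to 6 gave way to states 7 and 8 along the gene. In the first 10% of the record, states 3 to 6 held 73.0% and states 7 and 8 4.38% of bases, on average over the 40 genes. In the fifth 10% they held 5.71 and 59.0%, and in the last 10% 0 and 82.3%. Over all genes with a start the last 10% held 28.6% in states 7 and 8. State 17 came directly after the run in 14 of 37 genes (37.8%, against 40.9% of all genes with such a start), state 2 in 10 (27.0%, against 13.2%) and state 8 in 7 (18.9%, against 7.3%). State 16 followed in 4 genes (10.8%, against 22.5%), state 1 in Psmd11 (2.70%, against 10.0%) and state 7 in Psmc3ip (2.70%, against 2.22%). The 7 genes in which state 8 followed at once were Psmc4, Psmb4, Psmb5, Psmb6, Psme1, Psme2 and Psme3. The median distance from the run to the first bin of state 7 or 8 in the record was 1.4 kb over the 37 genes, all of which had such a bin, and 2.8 kb over the 87.0% of the 8797 genes that had one.

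**Figure D4:**
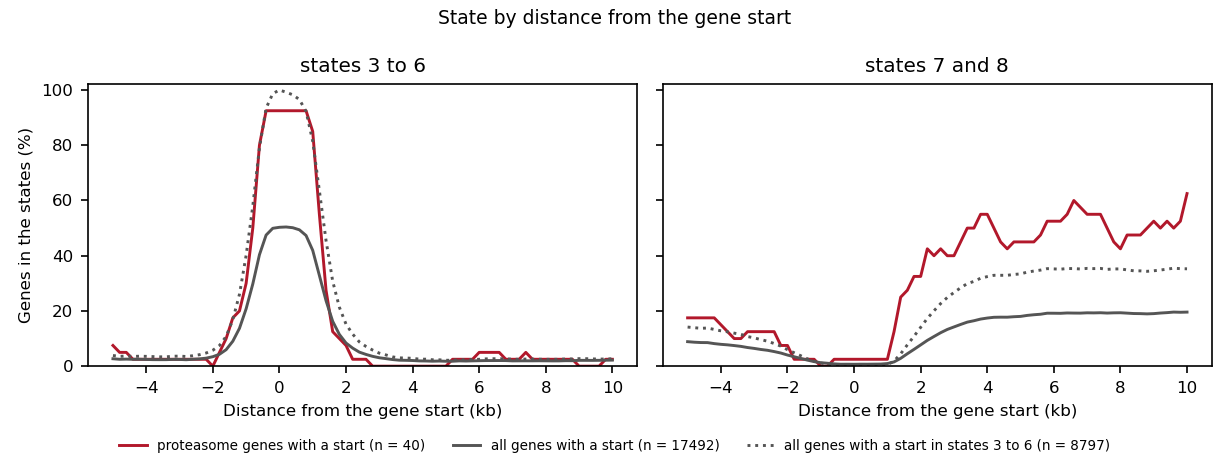
Percentage of genes in states 3 to 6 (left) and in states 7 and 8 (right) by distance from the start (x axis, kb), for the 40 proteasome genes (red), all 17492 genes with a start (solid grey) and the 8797 with a start in states 3 to 6 (dotted). At 4 kb downstream 55.0% of the proteasome genes were in states 7 and 8, against 17.4% of all genes and 32.4% of those with a start in states 3 to 6. The share of the proteasome genes varied with distance, with 42.5% at 4.6 kb and 62.5% at 10 kb, against 17.7 and 19.6% of all genes.

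The share of the record in states 7 and 8 overlapped widely between roles. Its median was 73.1% for the 6 ATPases (47.8% at Psmc5 to 87.0% at Psmc4) and 66.4% for the 11 non-ATPases. It was 49.8% for the alpha ring (38.7% at Psma6 to 74.9% at Psma4) and 44.7% for the beta ring (lowest at Psmb7, highest at Psmb1 with 77.5%). The 4 activators had 43.3 to 83.8%. State 7 was in the records of all 7 alpha ring genes, most of all Psma2 (12.9%), but in 0 of the 4 activators. It was in 24 of the 48 records and in 26.5% of all protein-coding records, and these roles hold few genes. The longest unbroken stretch of states 7 and 8 was 14.6 kb, in Psmf1, followed by 13.2 kb in Psmd12.

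Psmd14 was the exception among the cap subunits. Its record of 88.7 kb held 9.02% in states 7 and 8. State 17 covered 48.7%, state 18 covered 13.3%, state 11 covered 12.8% and state 13 covered 5.19%, and its 3′ end lay in state 11. Its start and run, in contrast, were like those of the others. It was the 1 gene of the 48 with an end in states 9 to 11 (2.08%, against 23.9% of all genes), and with Psme4 1 of 2 with any such base in the record (4.17%, against 34.5%). Psme4, the longest record at 109.4 kb, held 43.3% in states 7 and 8, the first bin of which lay 25.0 kb after its run. Psmg4 and Psmd10 had 21.0 and 21.7%. Psmg4 also held 27.6% in state 18 and 13.2% in state 15. Over the 37 genes with a run, record length and this share gave Spearman's rho = -0.07 and Pearson's r = -0.32, as a description across genes.

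**Figure D5:**
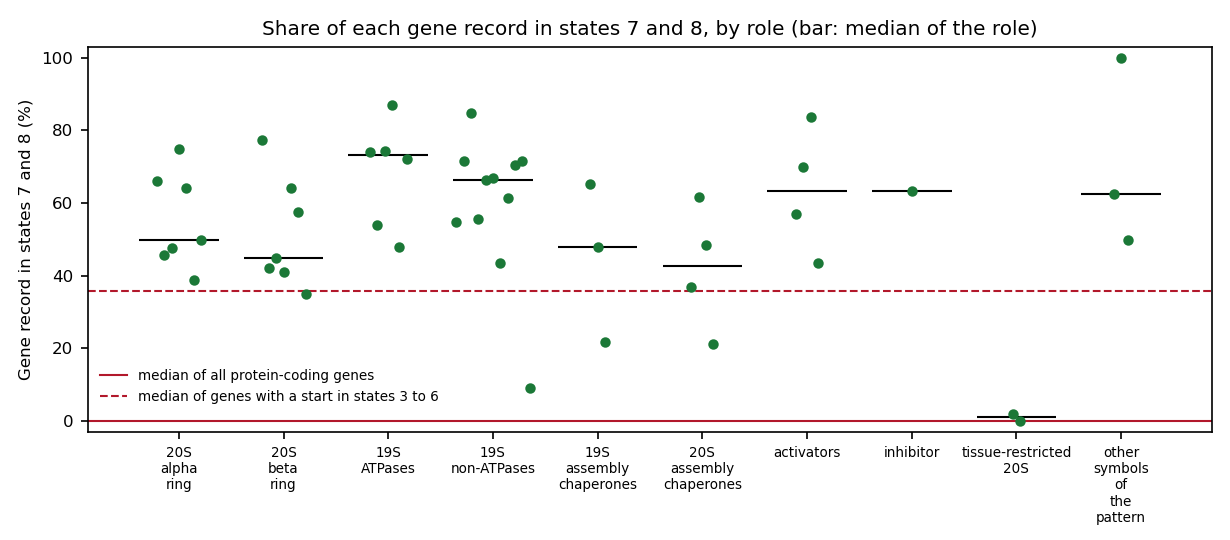
Share of each gene record in states 7 and 8 (y axis, %) by role, 1 point per gene for all 48 genes, with the median of each role as a black bar. The red lines are the medians of all protein-coding genes (solid, 0%) and of those with a start in states 3 to 6 (dashed, 35.6%), and Psmd14 at 9.02% and the 2 tissue-restricted genes lie lowest, and Psme2b at 100% highest.

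Several runs were shared with a neighbouring gene read in the other direction. A start on the other strand within 1 kb upstream was found for 6 of the 40 genes (15.0%, against 7.52% of all genes with a start). The same count is 16.2% of the 37 with a run, against 13.9% of the 8797. The pairs were Psma2 with Mrpl32 (205 bases apart), Psma7 with Ss18l1 (19), Psmc5 with Ftsj3 (101), Psmd13 with Sirt3 (85), Psme2 with Rnf31 (641) and Psme3ip1 with Rspry1 (215). In each pair both starts lay in states 3 to 6. These 6 runs had a median of 2.9 kb (2.4 to 3.4) and the other 31 a median of 2.0 kb (1.6 to 4.2). Over all genes the medians were 2.6 and 2.2 kb. The runs with a divergent neighbour reached 1.6 kb upstream of the start in the median, and the others 0.6 kb. Over all genes these upstream extents were 1.4 and 0.8 kb. Some neighbours had runs of their own nearby: Tbp within 5 kb of Psmb1, Styx near Psmc6, and Emc9 between Psme1 and Psme2.

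Promoter motifs were counted on both strands in the 300 bases around each start. A match is a description of letters and not of binding. The ETS core CCGGAAG was in 15 of the 40 promoters (37.5%), against 11.9% of all protein-coding promoters and 20.6% of those with a start in states 3 to 6. The motif of the respiratory factor NRF1 was in 7 of 40 (against 6.66 and 12.0%). The antioxidant response element core TGANNNNGC, which proteasome regulators of the cap'n'collar family recognise, was in 22 (55.0%, against 41.7 and 43.3%), and is common in promoters of this length. The CCAAT box was in 15 (37.5%, against 39.2 and 39.7%). The TATA box TATAAA was in 3 (7.50%), below the 13.3% of all promoters and above the 6.16% of those with a start in states 3 to 6. The YY1 motif AAGATGGCG was in 2 (5.00%, against 1.92 and 3.58%). The second share of each pair covers only genes that start in states 3 to 6, whereas the 40 include genes that start elsewhere. Over the 37 proteasome genes with such a start, the shares were 40.5% (ETS), 18.9% (NRF1) and 54.1% (antioxidant core). They were 35.1% for the CCAAT box, 8.11% for the TATA box and 5.41% for YY1. In the printed sequences, the ETS core of Psmc2 reads on the minus strand 84 bases before the start. The YY1 match of Psmb6 lies after its start and is not in the stretch shown. Motifs may overlap one another.

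Nearly all other genes of the pathway also had an end in states 3 to 6. Of 28 genes listed, 27 were found by symbol (Paaf1 was not), and 26 (96.3%) had an end in states 3 to 6. All 21 with a start in the table began there, against 50.3% of all genes, with a median run of 2.8 kb (2.0 to 6.4), beside 2.2 kb (1.6 to 4.2) in the proteasome genes. Adrm1, a ubiquitin receptor of the cap, and Pomp, which helps to assemble the barrel, had runs of 2.2 and 2.0 kb. Nfe2l1, the transcription factor that raises proteasome genes when the enzyme is inhibited, had 2.6 kb. Nfe2l2, its oxidative stress relative, had 4.0 kb with 3.6 kb of state 3. The ubiquitin gene Ubb had 5.6 kb and lay in state 3 at both ends. Zfand5, whose product binds ubiquitin and the proteasome, had the longest, 6.4 kb. Ecpas, which tethers the cap to the core, had no end in these states but a start in state 6.

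The immunoproteasome genes, which replace the 3 protease subunits after interferon, are among the 21 pathway genes counted above as beginning in states 3 to 6. Psmb8 had a run of 3.0 kb with a start in state 3, Psmb9 4.0 kb with a start in state 5, and Psmb10 2.6 kb with a start in state 3. Beside these stood 2.0 kb at Psmb5, the gene that Psmb8 replaces, 1.6 kb at Psmb6, which Psmb9 replaces, and 1.6 kb at the record end of Psmb7, which Psmb10 replaces. Poly(I:C) was given to the mice of the libraries, and whether it bears on these runs was not tested.

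Beside other housekeeping complexes, the proteasome genes had similar shares at the start and a higher median in the body. Both sets were taken by symbol pattern. The ribosomal pattern, Rpl or Rps followed by a number, can admit genes for proteins outside the ribosome, and its records reached 214.3 kb. The start lay in states 3 to 6 in 67 of 70 oxidative phosphorylation genes (95.7%) and 64 of 75 ribosomal protein genes (85.3%). The median run was 2.2 kb in the former and 2.8 kb in the latter, against 2.2 kb for proteasome genes. The median share of the record in states 7 and 8 was 40.2% over 87 oxidative phosphorylation genes and 27.1% over 97 ribosomal protein genes, against 57.2%. Median record lengths were 7.13, 3.35 and 12.4 kb in the order oxidative phosphorylation, ribosomal protein and proteasome, and the part of length in these shares was not tested. State 8 followed the run directly in 34 of 64 ribosomal protein genes (53.1%), against 18.9% of proteasome genes. In oxidative phosphorylation genes it did so in 5 of 67 (7.46%). State 7 followed directly in 25.0% of ribosomal protein, 4.48% of oxidative phosphorylation and 2.70% of proteasome genes. State 18 occurred in 12.5% of proteasome, 10.3% of oxidative phosphorylation and 12.4% of ribosomal protein records. States 9 to 11 occurred in 4.17, 4.60 and 6.19% in that order. One end in states 3 to 6 and the other in 7 or 8 was seen in 77.1, 64.4 and 61.9%. More than 50% of the record lay in states 7 and 8 in 58.3, 40.2 and 20.6%. None of these differences was tested.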

How the data were processed

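The authors deposited 1 segmentation of mm10, as a dense and an expanded browser track. Its unit is a state number per segment of 200 bp bins, with 18 states in emission order per the file headers; both tracks gave the same state in 100% of bins. Bowtie2, deepTools, MACS2 and HOMER stand in the submitters' processing notes with no role or version. Neither the tracks behind the model nor its software version is stated. No column belongs to 1 library.

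Gene records are those of RefSeq (GRCm38.p6). Of 21900 protein-coding records, 13 off the map and 108 in the first 3 Mb of a chromosome were left out. Starts came from the RefSeq promoter table, taking the one nearest to the 5′ end of the record. Runs, shares of bases and motifs were counted with Python 3.11.15 and numpy 2.4.6, and run finding was tested on simulated data. Intervals are Wilson intervals (scipy 1.17.1). With 1 map no statistical test was run. Members and lists were chosen with earlier results of these data known. The text gives every member within its role, with the state make-up of the longest and shortest run of each role, and the values of starts outside states 3 to 6; further genes were picked with their values in view. The count over the list of mature blood and stromal genes is not reported here.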

Additional observations from a re-analysis of the deposited data

How the results depend on the processing

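The 4 main values were recomputed under 32 alternatives in all. The shares of genes stayed within their Wilson intervals, which cover counting error and do not measure the effect of processing choices. Many alternatives could move the shares little: the expanded track holds the same states, and several others leave out only a few genes. The share of starts in states 3 to 6 ranged from 92.3% (autosomes only) to 38 of 40 (any start in the table, chosen after seeing the data). The share of genes with an end in these states ranged from 89.4 to 93.3% and was 91.1% without Psmc3ip, Psme2b and Psme3ip1 (also chosen after seeing the data), and the median run was 2.2 kb under each alternative run. The median share of the record in states 7 and 8 was 69.4% without the run at the start, over the 40 genes with a start, and 41.0% with 5 kb on each side, against 57.2%, so it depends on which bases are counted. With any bin within 1 kb the share of starts was 92.5%, against 52.6% of all genes. Leaving out replicates could not be done, since the map has none. No paired analysis was possible because the single map carries no replicate number and no knockout column. The bins of 200 bp limit lengths to that step.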
